A study of Mus musculus with 8 samples.

Results

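Oxidative phosphorylation is carried out in the inner mitochondrial membrane by 5 protein complexes. Complexes I and II pass electrons from NADH and from succinate to ubiquinone, complex III passes them to cytochrome c, complex IV passes them to oxygen, and complex V uses the resulting proton gradient to make ATP. Most subunits are encoded in the nucleus, and carcinomas of the pancreas are known to use this pathway beside glycolysis. The nuclear subunit genes were taken from the deposited table of raw read counts by the start of their symbols (Nduf, Sdh, Uqcr, Cox4 to Cox8 and Atp5), which gave 84 of the 24537 genes in the table. There were 35 for complex I, 4 for complex II, 8 for complex III, 20 for complex IV and 17 for complex V. Ndufa4 and Ndufa4l2 were counted with complex IV, where the Ndufa4 protein is now placed. Assembly factors (Ndufaf), Ndufab1 and Cyc1 fell outside these symbols and are given below as separate lists, and the subunits encoded in mitochondrial DNA were not analysed here. The symbols also took in Atp5s, Atp5sl and Cox7a2l, whose proteins are linked to ATP synthase coupling, complex I assembly and supercomplexes and are not classical subunits; without them 9 genes still rose and 1 fell of 72 tested.

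The samples were EpCAM-positive cells, isolated by flow cytometry from whole pancreatic tumours of individual FVB/NJ mice. Every mouse carried Tp53f/f, the luciferase reporter Rosa26LSL-Luc and Pdx1-Cre, a Cre recombinase driven by the promoter of the pancreatic progenitor gene Pdx1. The first arm (anti-LIF, n = 4 libraries) received gemcitabine, a cytidine analogue used against pancreatic cancer, and a monoclonal antibody against the cytokine LIF, and the second arm (IgG, n = 4 libraries) received gemcitabine and control IgG. Gemcitabine was given at 50 mg/kg on days 1 and 4 and the antibody or IgG at 25 mg/kg on days 1, 3 and 5, starting at 42 to 43 days of age, with collection on day 6. No arm without gemcitabine was available, so the comparison concerns the antibody in mice that all received the drug. Each library came from 1 mouse and no mouse number occurs in both arms. Values of the anti-LIF libraries are given below by mouse number, which puts KPCL-PCC_227_GA first, then KPCL-PCC_310_GA, then KPCL-PCC_354_GA and last KPCL-PCC_391_GA; those of the IgG libraries begin with KPCL-PCC_203_G, followed by KPCL-PCC_343_G, by KPCL-PCC_345_G and by KPCL-PCC_393_G.

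The libraries held 15135457 to 18972281 counts in genes. Markers of several cell types, though not of all, differed between the arms. The counts are to be read against all tested genes, of which 15.7% rose and 16.5% fell. Of 15 epithelial markers 0 rose and 12 fell, and together they took 0.189 to 0.376% of the counts in anti-LIF libraries and 0.605 to 0.742% in IgG libraries. Epcam, the antigen used for the sort, was present in every library, at 194, 326, 353 and 347 CPM with anti-LIF and 561, 664, 595 and 479 CPM with IgG. Of 15 myeloid markers 11 rose and 0 fell, with 2.12 to 3.47% of the counts in anti-LIF libraries and 1.11 to 1.47% in IgG libraries. Of 17 tested acinar markers 14 rose and 0 fell, with 0.273 to 1.22% of the counts in anti-LIF libraries and 0.0465 to 0.184% in IgG libraries, while Amy2a5 was at 0 in every library. Of 8 tested lymphoid markers 4 rose and 0 fell. Of 11 fibroblast markers 1 rose (9.09%), of 8 endothelial markers 1 fell (12.5%), and of 7 islet markers 0 rose or fell. Of 7 tested pericyte and muscle markers 1 rose and 2 fell. In RNA from a sorted pool, fewer cells of a type and less RNA per cell cannot be told apart. KPCL-PCC_227_GA stood apart, with the lowest scaling factor (0.844, against 0.978 to 1.08 in the other libraries), the lowest epithelial share and the highest myeloid share. Without KPCL-PCC_227_GA 6 subunit genes rose and 0 fell (7.89% of those tested), while 27.5% of all tested genes passed in either direction.

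The subunit mRNAs differed little between the arms. Of the 84 genes 75 had enough reads to test, and 9 rose with anti-LIF and 1 fell. The 9 without enough reads were Ndufs5 of complex I, Cox4i2, Cox6a2, Cox7b2, Cox7c, Cox8b, Cox8c and Ndufa4l2 of complex IV, and Atp5l of complex V. The genes that rose or fell made up 13.3% of the tested subunit genes, whereas 32.2% of all 14711 tested genes passed the same threshold (15.7% rose and 16.5% fell). The number that rose was 5 without KPCL-PCC_354_GA and 4 without any one of KPCL-PCC_203_G, KPCL-PCC_343_G and KPCL-PCC_393_G. Fewer of all tested genes rose in these runs too, 11.6% without KPCL-PCC_354_GA and 13.7, 9.89 and 11.1% without those IgG libraries in turn. The test was edgeR's quasi-likelihood test on counts scaled by the trimmed mean of M values (TMM), with p values adjusted over all tested genes by the Benjamini-Hochberg method and a threshold of 0.05. All log2 fold changes are anti-LIF over IgG, and the value after ± beside a log2 fold change is its standard error (SE). CPM are counts scaled to a common library size after TMM.

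The log2 fold changes of the subunits were also small. In 73 of 75 (97.3%) the log2 fold change was between −0.5 and 0.5, as it was in 65.0% of all tested genes. The 95% confidence interval lay within 1.5-fold of no change in 65 (86.7%), against 39.6% of all tested genes. The median SE was 0.092 for the subunit genes and 0.160 for all tested genes, and the 2 sets were not matched for read depth. The median log2 fold change was 0.10 over the 75 subunit genes and −0.01 over all tested genes, and 52 were positive and 23 negative. By complex, the medians were 0.08 for complex I, 0.17 for complex II, 0.06 for complex III, 0.10 for complex IV and 0.17 for complex V. The arms did not overlap in 11 subunit genes with anti-LIF above and in 4 with anti-LIF below. Over all tested genes the arms were apart in 17.6% with anti-LIF above and in 18.2% with anti-LIF below.

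**Figure D1:**
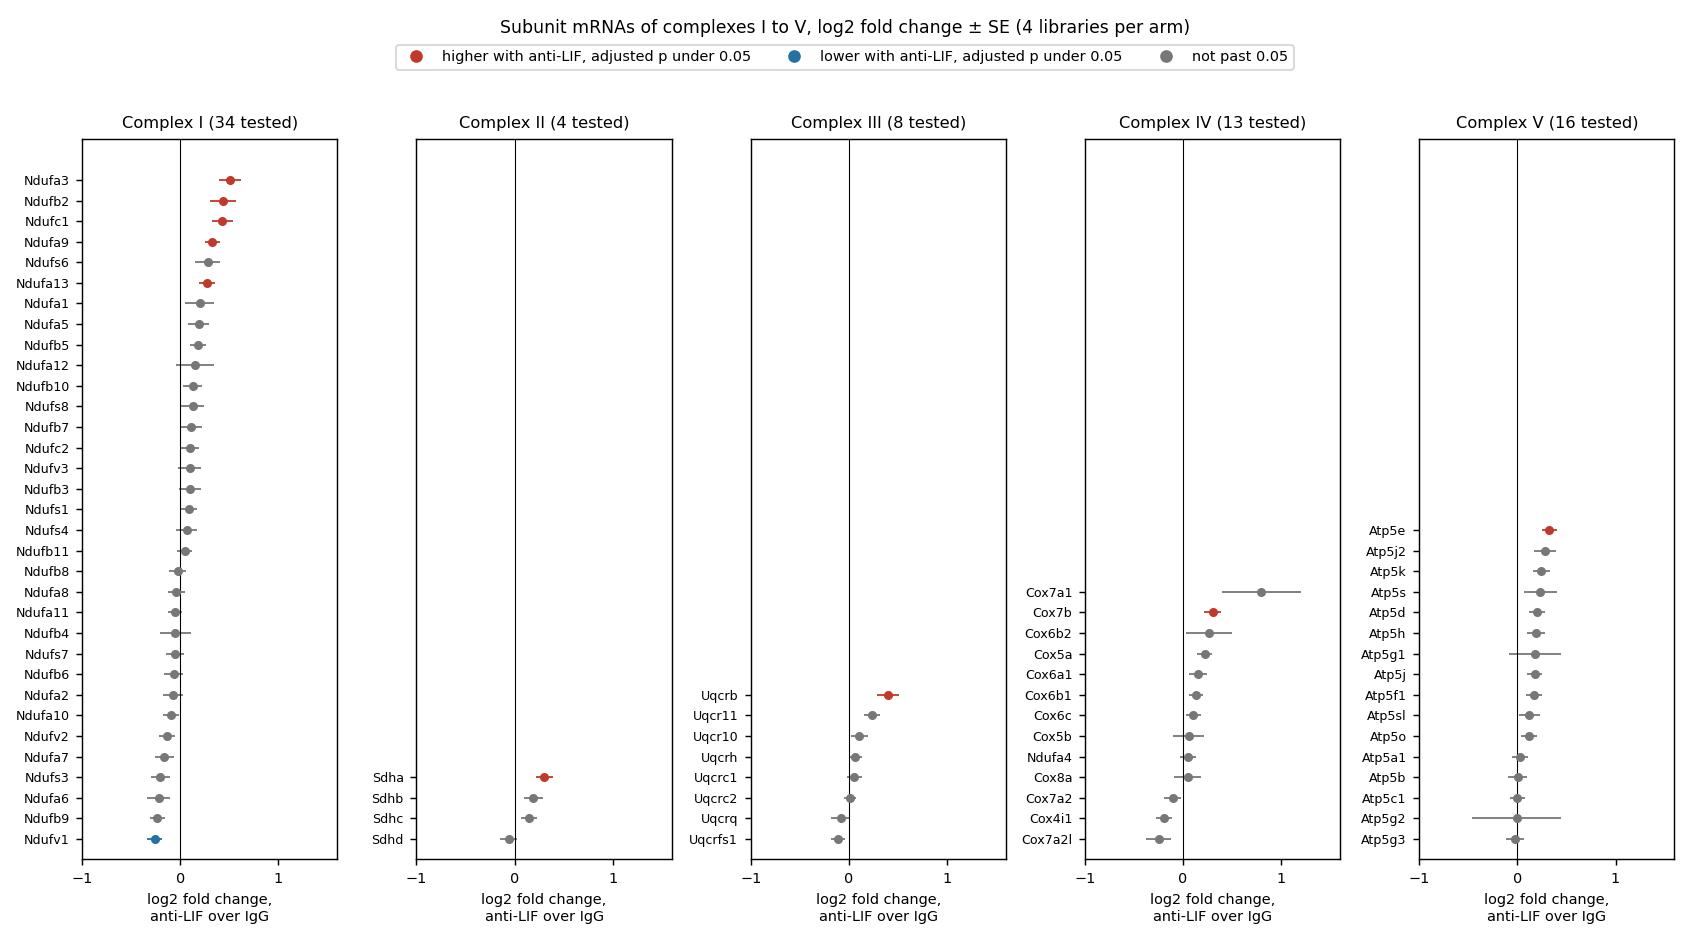
Log2 fold change (anti-LIF over IgG, points) with its SE (bars) for 74 of the 75 tested subunit genes, 1 panel for each complex, from 4 libraries per arm. The 9 genes that rose and the 1 that fell stand at log2 fold changes of 0.27 to 0.51 and −0.26, and the widest bars belong to the rarely sequenced Cox7a1, Atp5g2 and Atp5g1.

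The direction of these differences depended on how the libraries were scaled. Subunit mRNAs together took 0.4999, 0.604, 0.601 and 0.546% of the counts in the anti-LIF libraries, against 0.588, 0.5996, 0.634 and 0.608% in the IgG libraries. The mean was 0.563 ± 0.0495% with anti-LIF and 0.608 ± 0.0198% with IgG (SD, n = 4 each), so the mean share before further scaling was lower with anti-LIF, while the ranges overlapped. With library size as the only scaling, 1 subunit gene rose (Ndufa3) and 8 fell, among them Ndufv1, and the median log2 fold change was −0.06. The same scaling gave all tested genes a median of −0.16, with 9.72% higher and 24.2% lower, so relative to all genes the subunits stood at 0.11 on the log2 scale, against 0.10 with TMM. The statements on single genes below therefore refer to TMM-scaled values, and Ndufa3 and Ndufv1 passed under both scalings.

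Among the 5 complexes, levels per transcript length were compared with the authors' FPKM values. The median FPKM over the 8 libraries was 37.9 for the genes of complex I, 66.3 for complex II, 56.7 for complex III, 34.5 for complex IV and 65.1 for complex V. By FPKM the most abundant mRNAs were Cox4i1 (342.9 FPKM), the ubiquitous form of subunit IV, and Atp5b (318 FPKM), the catalytic beta subunit of ATP synthase. In the other complexes the highest were Ndufb8 (113 FPKM), an accessory subunit of the membrane arm of complex I, Uqcrh (106 FPKM), the hinge protein of complex III, and Sdhd (91.2 FPKM), a membrane anchor of complex II. All 4 complex II genes lay between 58.4 and 91.2 FPKM, whereas complex IV ran down to Cox8c, which had 0 reads in all 8 libraries (a count of 0 allows up to 3). For 11 genes the FPKM table lists another transcript than the count table, Cox4i1 among them. In CPM, which are not divided by transcript length, Atp5b and Atp5a1 stood above Cox4i1.

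Some of the lowest levels belonged to subunits that are needed in every tissue. Each coding sequence was cut into overlapping words of 50 bases, and each word was looked for in the transcripts of all other genes of GENCODE M21, pseudogenes included. In Cox7c, Atp5l, Atp5g2 and Ndufb4 all coding words (100%) occurred in at least 1 other gene, and in Atp5g1 99.7% did. These 5 genes had 0.325, 0.468, 0.667, 6.93 and 1.44 FPKM. The 48 subunit genes with no shared coding word had a median of 47.7 FPKM, and the 32 with some but not all shared words, Atp5g1 included, had a median of 49.0 FPKM. Among the 32, Ndufs5 (72.5% of its words shared) had 1.21 FPKM, Uqcrb (72.9%) 24.6 FPKM, Ndufa12 (69.8%) 13.1 FPKM and Atp5h (67.1%) 40.4 FPKM. No source used here says how reads that match several genes were counted, so these levels are uncertain and their relation to the shared sequence was not tested.

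For 3 of the genes whose coding sequence is wholly shared, the word found in the most other genes is shown (GRCm38 transcripts, sense strand, 50 bases each), because a read of that length could not be placed from its sequence alone. Cox7c lies on chromosome 13, Atp5g2 on chromosome 15 and Atp5l on chromosome 9.
Cox7c: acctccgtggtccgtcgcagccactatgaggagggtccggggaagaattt
Atp5g2: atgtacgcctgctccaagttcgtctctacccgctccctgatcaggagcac
Atp5l: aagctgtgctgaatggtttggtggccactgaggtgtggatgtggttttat
The Cox7c word covers coding bases 31 to 80 and occurs in 2 pseudogenes, Gm10012 and Gm12338. The Atp5g2 word covers coding bases 1 to 50 and occurs in 2, Gm10175 and Gm10231. The Atp5l word covers coding bases 215 to 264 and occurs in 9, among them Atp5l-ps1, Atp5l-ps2 and Atp5l2-ps.

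**Figure D2:**
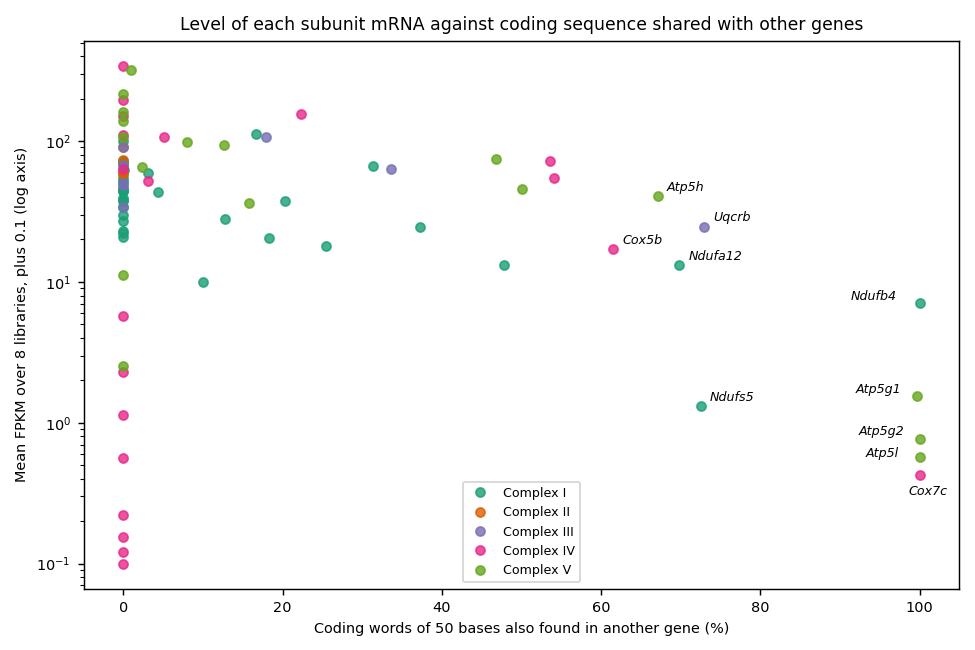
Mean FPKM over the 8 libraries plus 0.1 (log axis) of each of the 84 subunit genes against the share of its coding words of 50 bases that occur in another gene, coloured by complex. The 5 genes at 99.7% or more lie at 6.93 FPKM or less, while genes with no shared word reach 342.9 FPKM and also include the tissue-specific forms of complex IV near 0.

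Ndufs5, an accessory subunit at the intermembrane face of complex I, was present in some libraries and nearly absent from others. Its raw counts were 36, 0, 29 and 0 in the anti-LIF libraries, against 36, 1, 1 and 0 in the IgG libraries. The libraries with reads fall in both arms. Ndufs5 was picked out after its values were seen.

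Complex I oxidises NADH at a peripheral arm and pumps protons through a membrane arm. Its 7 core subunits in the table carry the redox centres, and the accessory subunits surround them. Of the 34 genes tested 5 rose and 1 fell. All 5 that rose encode accessory subunits, 18.5% of the 27 tested, against 15.7% of all tested genes that rose. The 1 that fell encodes a core subunit, 14.3% of the 7, against 16.5% of all tested genes that fell. Both shares were close to those of all tested genes. The median log2 fold change was −0.10 over the 7 core genes and 0.10 over the 27 accessory genes tested, and 5 of the core genes were negative. The core genes took 0.0348 to 0.0430% of the counts in anti-LIF libraries and 0.0461 to 0.0486% in IgG libraries, without overlap before scaling. After TMM scaling their mean log2 CPM was 5.66, 5.74, 5.74 and 5.60 in anti-LIF libraries and 5.69, 5.79, 5.84 and 5.72 in IgG libraries, and the arms overlapped. The difference between core and accessory genes was not tested.

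Ndufv1 (chr19:4007499-4012755, minus strand, mm10) encodes the flavoprotein that takes electrons from NADH. It had 65.5, 67.8, 74.4 and 65.8 CPM in the anti-LIF libraries, against 76.2, 85.1, 87.2 and 79.5 CPM in the IgG libraries. Every anti-LIF library was below every IgG library. The log2 fold change was −0.26 ± 0.08 (adjusted p = 0.0316). It passed when KPCL-PCC_354_GA or KPCL-PCC_203_G was left out and missed the threshold without any of the other 6 libraries.

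The other core subunits did not pass. Ndufs1, the largest core subunit of the peripheral arm, had a log2 fold change of 0.09 ± 0.08 with an interval of −0.09 to 0.26.

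Ndufa3 (chr7:3617373-3620161, plus strand) encodes a small accessory subunit of the membrane arm and had the largest log2 fold change among the complex I genes. It stood at 39.7, 38.3, 36.9 and 32.9 CPM with anti-LIF, against 21.3, 29.05, 27.6 and 26.1 CPM with IgG. All anti-LIF libraries were above all IgG libraries, and the log2 fold change was 0.51 ± 0.11 (adjusted p = 0.0117), a rise of 1.42-fold. It passed without each of the 8 libraries in turn.

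Ndufa9 (chr6:126821863-126849144, minus strand) encodes an accessory subunit near the site where ubiquinone enters. Its values were 62.6, 64.3, 64.4 and 57.5 CPM in anti-LIF libraries and 49.8, 45.6, 52.98 and 49.9 CPM in IgG libraries. The lowest anti-LIF library was above the highest IgG library. The log2 fold change was 0.33 ± 0.08 (adjusted p = 0.0136), and it passed without each library in turn.

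Ndufc1 (chr3:51405479-51408955, minus strand), an accessory subunit of the membrane arm, had 17.6, 16.9, 16.1 and 15.2 CPM with anti-LIF and 11.9, 11.2, 13.5 and 12.3 CPM with IgG. There was no overlap between the arms. The log2 fold change was 0.43 ± 0.11 (adjusted p = 0.0174), and this call too held without each library in turn.

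Ndufa13 (chr8:69894182-69902558, minus strand), also known as GRIM-19, encodes an accessory subunit that has been linked to cell death signalling. It had 77.5, 73.9, 77.5 and 67.4 CPM in anti-LIF libraries and 57.7, 59.7, 67.4 and 60.3 CPM in IgG libraries. KPCL-PCC_391_GA and KPCL-PCC_345_G came within a fraction of a CPM of each other, without overlap. The log2 fold change was 0.27 ± 0.08 (adjusted p = 0.0315), and it missed the threshold without KPCL-PCC_227_GA, KPCL-PCC_354_GA, KPCL-PCC_203_G, KPCL-PCC_343_G or KPCL-PCC_393_G.

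Ndufb2 (chr6:39592583-39599471, plus strand), a small subunit of the distal membrane arm, had 17.5, 16.5, 14.5 and 15.9 CPM with anti-LIF and 11.4, 11.3, 14.6 and 10.4 CPM with IgG. Here the arms overlapped, because KPCL-PCC_345_G was just above KPCL-PCC_354_GA. The log2 fold change was 0.43 ± 0.13 (adjusted p = 0.0379), and the call held only without KPCL-PCC_354_GA or KPCL-PCC_345_G. Since 37.2% of the coding words of Ndufb2 occur in other genes, its count is uncertain.

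Close to the threshold on the lower side, Ndufb9, an accessory subunit of the membrane arm, had 49.4, 50.6, 49.8 and 48.2 CPM with anti-LIF and 51.5, 59.2, 63.4 and 58.6 CPM with IgG. Again no anti-LIF library reached the IgG range, and its log2 fold change was −0.23 ± 0.08 (adjusted p = 0.0506). On the upper side the highest accessory gene that did not pass was Ndufs6, at 0.28 ± 0.13 (adjusted p = 0.123), so the 22 accessory genes not past the threshold lay between −0.23 and 0.28. Ndufb8, the complex I gene with the highest FPKM, had a log2 fold change of −0.03 ± 0.09 with a 95% interval of −0.23 to 0.18.

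**Figure D3:**
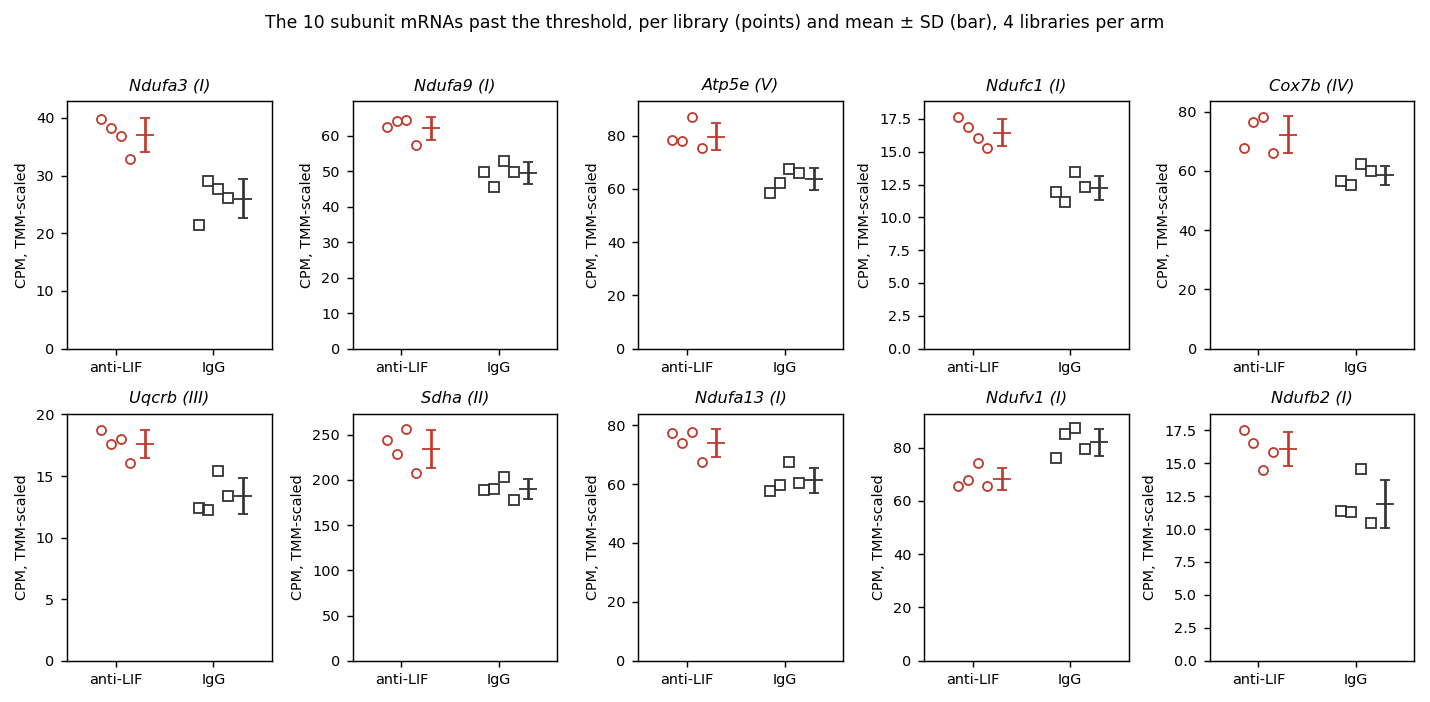
CPM after TMM scaling of the 10 subunit genes past the threshold, with 1 point for each library, anti-LIF on the left and IgG on the right, and the mean ± SD of 4 libraries beside them. The arms are apart in all of them but Ndufb2, and Ndufv1 is the one with the anti-LIF libraries below, at 65.5 to 74.4 CPM.

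Complex II, the succinate dehydrogenase of the citric acid cycle, has 4 subunits, and all are encoded in the nucleus. Of these 1 rose (25%) and 3 did not pass, against 32.2% of all tested genes past the threshold in either direction. Sdha (chr13:74322255-74350240, minus strand), the flavoprotein that oxidises succinate, had 244, 229, 257 and 208 CPM in anti-LIF libraries, against 189, 189.7, 204 and 178 CPM in IgG libraries. The arms did not overlap, and the log2 fold change was 0.30 ± 0.09 (adjusted p = 0.0310). It missed the threshold without KPCL-PCC_354_GA, KPCL-PCC_203_G, KPCL-PCC_343_G or KPCL-PCC_393_G. The iron-sulfur subunit Sdhb had 115, 103, 106 and 96.6 CPM with anti-LIF and 77.5, 94.2, 104 and 92.2 CPM with IgG, and its log2 fold change was 0.19 ± 0.10 (adjusted p = 0.175). The membrane anchor Sdhc had a log2 fold change of 0.15 ± 0.08 (adjusted p = 0.181) and the other anchor, Sdhd, one of −0.06 ± 0.08 (adjusted p = 0.603). Sdhd thus had the opposite sign to the other three, with a 95% interval of −0.25 to 0.13, and in both Sdhb and Sdhd the arms overlapped.

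Complex III passes electrons from ubiquinol to cytochrome c. Of its 8 genes 1 rose and 0 fell (12.5% past the threshold, against 32.2% of all tested genes). Uqcrb (chr13:66900621-66905350, minus strand), a subunit that contributes to the ubiquinone binding site, had 18.8, 17.6, 17.98 and 16.1 CPM in anti-LIF libraries and 12.4, 12.2, 15.4 and 13.4 CPM in IgG libraries. The arms did not overlap. The log2 fold change was 0.40 ± 0.11 (adjusted p = 0.0285), and it missed the threshold without KPCL-PCC_227_GA, KPCL-PCC_354_GA, KPCL-PCC_203_G, KPCL-PCC_343_G or KPCL-PCC_393_G. Since 72.9% of its coding words occur in other genes, its count is uncertain. Among the other genes past the threshold, Ndufb2 (37.2%), Ndufc1 (12.8%), Ndufa13 (4.4%) and Cox7b (3.1%) also share coding words. Uqcr11, a small subunit, had 38.6, 39.8, 36.8 and 32.7 CPM with anti-LIF and 30.9, 29.7, 32.6 and 32.5 CPM with IgG, also without overlap. Its adjusted p was 0.0639, and 33.6% of its coding words occur in other genes. The core proteins Uqcrc1 and Uqcrc2 had log2 fold changes of 0.06 ± 0.08 and 0.01 ± 0.06. The Rieske iron-sulfur protein Uqcrfs1 had the lowest log2 fold change of the complex, −0.11 ± 0.07, with a 95% interval of −0.27 to 0.05. Uqcrh, the gene of the complex with the highest FPKM, had a log2 fold change of 0.06 ± 0.07.

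Complex IV, cytochrome c oxidase, has several subunits that come in tissue-specific forms. Of the 13 genes tested 1 rose and 0 fell (7.69% past the threshold, against 32.2% of all tested genes). Cox7b (chrX:106015700-106022450, plus strand), a subunit required for assembly of the enzyme in human cells, had 67.9, 76.7, 78.4 and 65.95 CPM in anti-LIF libraries and 56.5, 55.4, 62.5 and 59.9 CPM in IgG libraries. The 4 anti-LIF libraries were above the IgG range, with a log2 fold change of 0.30 ± 0.08 (adjusted p = 0.0259). The call was lost without KPCL-PCC_310_GA, KPCL-PCC_354_GA, KPCL-PCC_203_G, KPCL-PCC_343_G or KPCL-PCC_393_G. Cox4i1, the subunit mRNA with the highest FPKM, had 268, 264, 275 and 259 CPM with anti-LIF and 284, 311, 326 and 299 CPM with IgG. Every anti-LIF library was below every IgG library, while the adjusted p was 0.0803 at a log2 fold change of −0.19 ± 0.08. Cox4i1 did pass as lower with upper-quartile scaling, library size alone, header totals, DESeq2, voom sample weights and both FPKM fits. In the other alternatives it did not. Cox5a, which joins the enzyme together with Cox4i1 during assembly, was apart in the other direction, at 99.2, 108, 97.5 and 89.9 CPM with anti-LIF and 80.002, 85.2, 85.9 and 87.5 CPM with IgG (log2 fold change 0.22 ± 0.08, adjusted p = 0.0538).

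The ubiquitous forms of complex IV subunits were far above the tissue-specific ones. Cox6a1, Cox6b1, Cox7a2 and Cox8a, found in most tissues, had 156, 196, 63.0 and 151 FPKM. The forms known from heart and skeletal muscle, Cox6a2, Cox7a1 and Cox8b, had 0.123, 2.19 and 0.0551 FPKM. The forms known from testis, Cox6b2, Cox7b2 and Cox8c, had 5.60, 0.0215 and 0 FPKM. Of the 6 of these that were tested, 0 passed the threshold, and 0 had an unadjusted p under 0.05. Cox6a1 had a log2 fold change of 0.15 ± 0.09, Cox6b1 one of 0.13 ± 0.07, Cox7a2 one of −0.11 ± 0.09 and Cox8a one of 0.04 ± 0.13, with adjusted p values of 0.228, 0.202, 0.371 and 0.821. Cox7a1 had the largest log2 fold change of all subunit genes, 0.80 ± 0.40, but at 1.79, 1.27, 1.30 and 0.806 CPM with anti-LIF and 0.287, 1.10, 0.760 and 0.811 CPM with IgG its 95% interval ran from −0.11 to 1.71 (adjusted p = 0.158). Cox6b2 had a log2 fold change of 0.26 ± 0.23 (adjusted p = 0.419).

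Cox4i2, the form of subunit IV that responds to low oxygen in lung and other tissues, had too few reads to be tested with all 8 libraries. Its raw counts were 4, 7, 9 and 8 in the anti-LIF libraries, against 5, 22, 56 and 24 in the IgG libraries. The IgG libraries other than KPCL-PCC_203_G were the high ones, and the arms overlapped. In the run without KPCL-PCC_203_G, Cox4i2 passed the read filter through the remaining IgG libraries, where it was high, and was called lower. That run leaves out the IgG library that lay within the anti-LIF range, so the choice of libraries favoured a fall and no result is drawn from it. Ndufa4l2, a relative of Ndufa4 that is induced in low oxygen, had 5, 20, 3 and 11 counts with anti-LIF and 7, 5, 11 and 11 with IgG. Ndufa4 itself had 68.8, 67.9, 69.1 and 65.95 CPM with anti-LIF and 71.9, 61.3, 68.4 and 60.9 CPM with IgG, a log2 fold change of 0.05 ± 0.08 with an interval of −0.13 to 0.22. Cox7a2l, the supercomplex factor, had the lowest log2 fold change of the group, −0.25 ± 0.13 (adjusted p = 0.168). It had 73.2, 56.2, 71.7 and 66.6 CPM in anti-LIF and 69.1, 94.01, 86.2 and 69.2 CPM in IgG libraries, which overlapped. Of its coding words 54.1% occur in other genes, so its count is uncertain.

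Complex V makes ATP in its F1 sector, which is turned by the Fo sector in the membrane. Of the 16 genes tested 1 rose and 0 fell (6.25% past the threshold, against 32.2% of all tested genes). Atp5e (chr2:174461075-174464101, minus strand), the epsilon subunit of the rotating stalk of F1, had 78.4, 77.9, 87.1 and 75.4 CPM in anti-LIF libraries, against 58.6, 62.1, 67.6 and 66.1 CPM in IgG libraries. No IgG library reached the anti-LIF range, and the log2 fold change was 0.32 ± 0.08 (adjusted p = 0.0159), with the call kept without each library in turn. The delta subunit of the same stalk, Atp5d, had a log2 fold change of 0.20 ± 0.08 (adjusted p = 0.0927). The remaining F1 genes had log2 fold changes near 0. Atp5b had 693, 814, 776 and 704 CPM with anti-LIF and 717, 709, 761 and 789 CPM with IgG, a log2 fold change of 0.005 with a 95% interval of −0.22 to 0.23. Atp5a1, the alpha subunit, had a log2 fold change of 0.03 ± 0.08 (interval −0.17 to 0.22) and Atp5c1, the gamma subunit, one of 0.0006 (interval −0.16 to 0.17).

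The 9 tested genes of the Fo sector and the stator had a median log2 fold change of 0.18, 7 were positive, and 0 passed the threshold. Of these, 3 had an unadjusted p under 0.05. Atp5j2, the f subunit of Fo, had the highest value, 0.28 ± 0.11 (adjusted p = 0.0883). Atp5k, the e subunit, had 25.4, 25.4, 27.1 and 23.8 CPM with anti-LIF and 23.5, 20.8, 21.3 and 20.4 CPM with IgG, without overlap, and a log2 fold change of 0.24 ± 0.09 (adjusted p = 0.0613). The 3 genes for the identical c subunit of the proton-driven ring differed in level. Atp5g3 had 162 FPKM, whereas Atp5g1 and Atp5g2 had 1.44 and 0.667 FPKM, both with nearly all coding words shared. Atp5g3 had the lowest log2 fold change of the complex, −0.02 ± 0.09 (interval −0.23 to 0.19), Atp5g1 had 0.18 ± 0.27 (interval −0.42 to 0.78) and Atp5g2 −0.01 ± 0.45 (interval −1.04 to 1.02).

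The subunit genes were also set against transcript length, as a description with no test. Of the 17 tested subunit genes with transcripts of at most 500 bases 5 rose (Ndufa3, Ndufb2, Ndufc1, Uqcrb and Atp5e), with a median log2 fold change of 0.26. Over all 173 tested genes of that length the median was 0.05, and 26 rose and 13 fell (22.5% in either direction). Of the 32 subunit genes above that and up to 1000 bases 1 rose (Cox7b), with a median of 0.06. Of all 977 tested genes of that length 173 rose and 119 fell (29.9% in either direction). Of the 21 between 1000 and 2000 bases 2 rose (Ndufa9 and Ndufa13) and 1 fell (Ndufv1), with a median of 0.01. Of all 3409 tested genes of that length 537 rose and 502 fell (30.5%). Of the 5 longer ones 1 rose (Sdha), and of all 10152 longer genes 1567 rose and 1794 fell (33.1%). The median of the 5 longest subunit genes, 0.09, was above those of both middle classes, so the medians did not fall steadily with length. Across the 75 genes, which share the same libraries, log2 fold change and log2 length had Pearson's r of −0.32 and Spearman's rho of −0.35, as a description across genes that are not independent. Over all tested genes r was −0.06 and rho −0.05. When a smooth trend of expression on length was removed from each library, the same 9 subunit genes rose and 2 fell, Ndufv1 and Ndufb9.

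**Figure D4:**
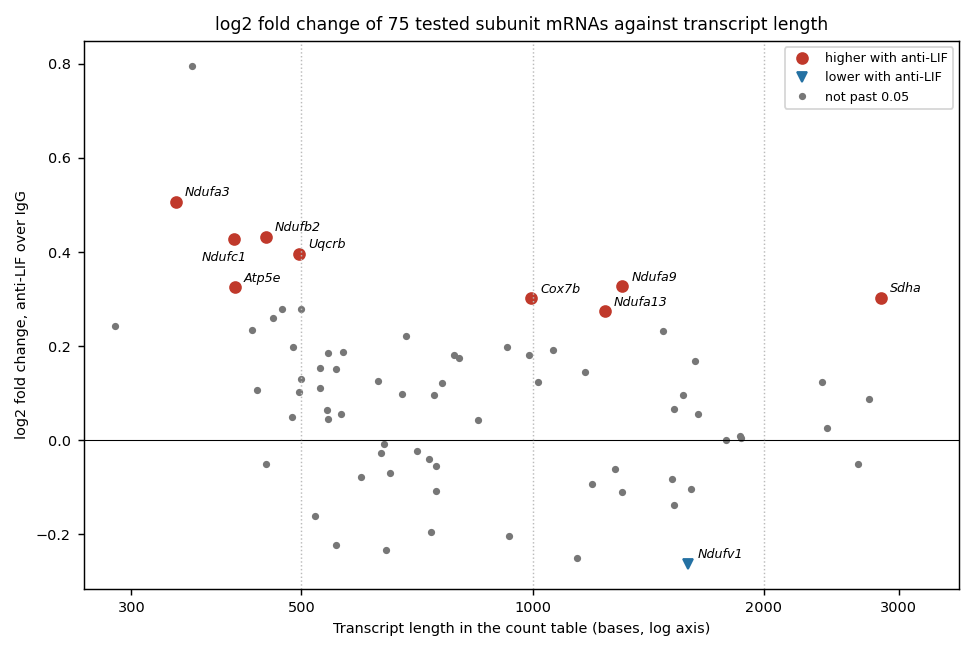
Log2 fold change (anti-LIF over IgG) of the 75 tested subunit genes against transcript length in the count table (log axis), with dotted lines at 500, 1000 and 2000 bases. The 5 genes that rose among transcripts of at most 500 bases stand at 0.32 to 0.51, and the point at 0.80 is the rarely sequenced Cox7a1.

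Within an arm the subunit genes varied little. The median coefficient of variation of CPM was 7.64% over the 4 anti-LIF libraries and 7.67% over the 4 IgG libraries, against 15.4% and 13.5% for all tested genes. Among genes above 10 CPM it was 7.13% and 7.28% for the subunits, against 11.7% and 10.7% for all genes. Levels above 10 CPM were not matched between the sets.

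Many promoters of subunit genes are known to bind NRF1 and ETS family factors such as GABP. The RefSeq promoter windows (GRCm38.p6, 250 bases before to 50 after the gene's start) held an entry for 69 of the 84 genes. The NRF1 core TGCGCA, which reads the same on both strands, was present in 18 of them (26.1%), against 7.8% of all 32851 windows. The ETS core CCGGAAG or its complement CTTCCGG was present in 15 (21.7%), against 8.9% of all windows, and 29 (42.0%) held either one, against 15.3%. The motifs do not overlap in sequence, and base composition differs between windows and was not matched. Of the 8 genes that rose and have a window, 2 held the NRF1 core (25.0%) and 1 the ETS core (12.5%), against 26.1% and 21.7% of the windows of all subunit genes. By complex the NRF1 core was in 10 of 31 complex I windows, 2 of 3 for complex II, 1 of 5 for complex III, 2 of 14 for complex IV and 3 of 16 for complex V.

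The 150 bases before the start are shown for Sdha and Atp5e, which rose and hold a motif, and for Ndufa3 and Ndufv1, the largest rise and the fall within complex I, which hold neither in this window. Each is written 5′ to 3′ on the strand of its gene, with the motif in capitals. The regions are chr13:74350241-74350390 (minus strand), chr2:174464102-174464251 (minus strand), chr7:3617223-3617372 (plus strand) and chr19:4012756-4012905 (minus strand).
Sdha: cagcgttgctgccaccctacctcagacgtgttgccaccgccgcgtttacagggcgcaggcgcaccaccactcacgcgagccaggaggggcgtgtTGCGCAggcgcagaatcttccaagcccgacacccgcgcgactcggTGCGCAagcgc
Atp5e: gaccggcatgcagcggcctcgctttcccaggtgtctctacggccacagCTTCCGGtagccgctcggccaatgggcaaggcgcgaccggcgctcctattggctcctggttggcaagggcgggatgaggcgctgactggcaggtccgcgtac
Ndufa3: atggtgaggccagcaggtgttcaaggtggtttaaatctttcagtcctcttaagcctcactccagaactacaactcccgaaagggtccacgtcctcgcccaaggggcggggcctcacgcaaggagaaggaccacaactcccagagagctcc
Ndufv1: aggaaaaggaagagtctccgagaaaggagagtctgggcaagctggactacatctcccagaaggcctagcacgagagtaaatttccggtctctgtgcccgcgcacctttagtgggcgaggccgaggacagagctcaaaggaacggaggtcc
A match describes the letters of the window and not a bound site, and the windows without one say nothing of either factor.

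Beside the subunits, the genes that build the complexes were described from lists, to be read against the 15.7% of all tested genes that rose and the 16.5% that fell. Of 20 complex IV assembly factors 5 (25.0%) rose and 0 fell, with a median log2 fold change of 0.13. Coa3, which acts on the newly made Cox1 protein, had 34.9, 35.99, 37.9 and 33.98 CPM with anti-LIF and 27.6, 22.2, 24.9 and 25.8 CPM with IgG, a log2 fold change of 0.51 ± 0.09 (adjusted p = 0.00569). The arms did not overlap. Coa4 had 0.65 ± 0.14 (adjusted p = 0.0114), the copper chaperone Cox17 0.47 ± 0.14 (adjusted p = 0.0321) and Coa5 0.31 ± 0.07 (adjusted p = 0.0152), and Cox14 also rose. Of the 14 complex I assembly factors 2 (14.3%, close to the share of all genes that rose) rose and 0 fell, Timmdc1 at 0.47 ± 0.14 (adjusted p = 0.0334) and Acad9 at 0.26 ± 0.08 (adjusted p = 0.0299), with a median of 0.10. Of the 4 for complex II, Sdhaf1, which helps to insert the iron-sulfur clusters of Sdhb, fell at −0.55 ± 0.13 (adjusted p = 0.0138), and Sdhaf2, which attaches the flavin to Sdha, rose at 0.43 ± 0.14 (adjusted p = 0.0463). Of 5 tested for complex III 1 fell, Ttc19 at −0.37 ± 0.12 (adjusted p = 0.0479). None of 3 tested for complex V passed, and 1 of them had an unadjusted p under 0.05.

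In the lists that follow, the share past the threshold in either direction is to be read against 32.2% of all tested genes. None of the 4 tested electron carriers and other subunits outside the symbols (such as Cyc1) and none of 15 tested regulators of mitochondrial genes passed edgeR's test, although 2 of the regulators had an unadjusted p under 0.05 and the regulators' median was 0.14. Of 17 citric acid cycle and pyruvate dehydrogenase genes 3 rose (Ogdh at 0.43 ± 0.11, Fh1 at 0.48 ± 0.14 and Idh2 at 0.29 ± 0.10) and Dlat fell at −0.28 ± 0.08 (23.5% past the threshold). Of 18 import genes 3 rose and 1 fell (22.2%). The one that fell was Tomm20, a receptor of the outer membrane, with 33.2, 36.7, 32.01 and 39.1 CPM with anti-LIF and 49.3, 63.1, 61.2 and 52.6 CPM with IgG and a log2 fold change of −0.68 ± 0.11 (adjusted p = 0.00461), while Timm17b rose at 0.49 ± 0.12, Tomm7 at 0.34 ± 0.08 and Tomm6 at 0.29 ± 0.08. Of 9 carriers and porins 33.3% passed, close to the share of all genes. One rose, the oxoglutarate carrier Slc25a11 at 0.37 ± 0.08, and 2 fell, the heart and muscle ADP/ATP carrier Slc25a4 at −0.30 ± 0.07 and the porin Vdac2 at −0.26 ± 0.09. Of 76 mitochondrial ribosomal genes 7 rose and 0 fell (9.21%), with a median of 0.05, and the 4 with the lowest p were Mrps15, Mrps21, Mrpl24 and Mrpl36 at 0.58 ± 0.10, 0.66 ± 0.13, 0.34 ± 0.08 and 0.51 ± 0.14. Of 74 cytosolic ribosomal genes 6 rose and 4 fell (13.5%), with a median of −0.05, and the 4 with the lowest p were Rpl15, Rpl31, Rps4l and Rpl5 at 0.88 ± 0.12, 1.13 ± 0.16, −1.27 ± 0.21 and −0.64 ± 0.11.

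**Figure D5:**
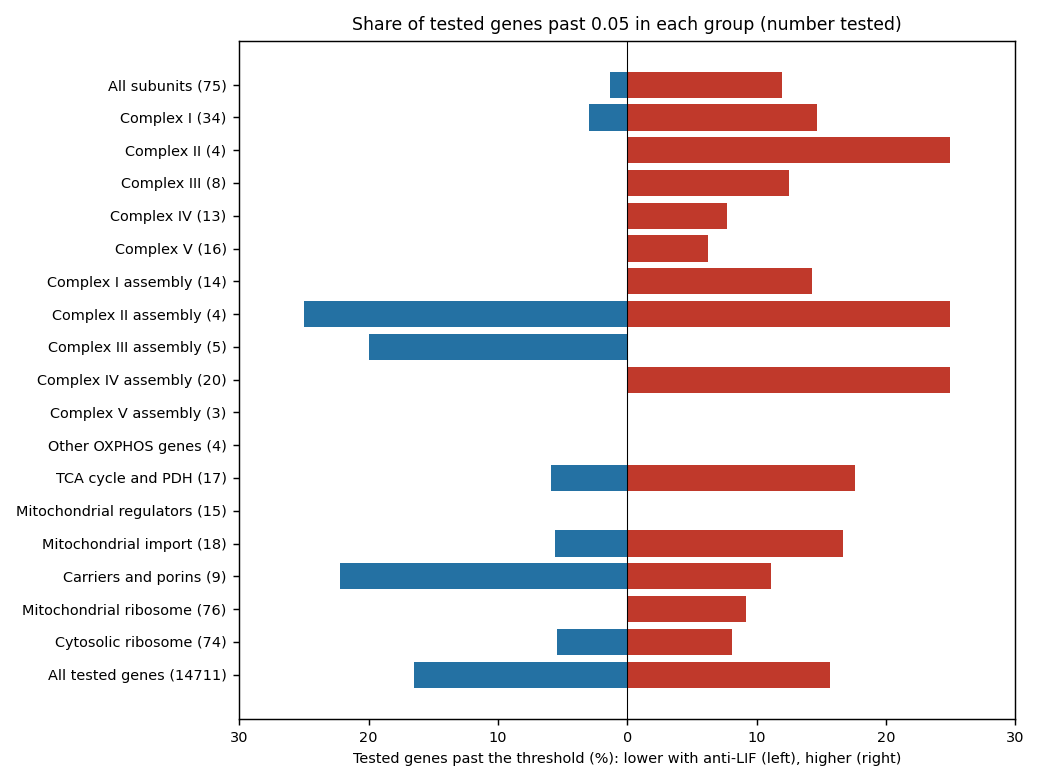
Share of tested genes past the threshold that rose (right) or fell (left) with anti-LIF, for the subunits, each complex, the lists around them and all tested genes, with the number tested in brackets. All tested genes stand at 15.7% higher and 16.5% lower, and the subunits at 9 and 1 of 75.

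The cell type markers that moved with the arms could not be separated from these changes. The mean log2 CPM of the acinar markers was 4.91 to 7.45 in the anti-LIF libraries and 1.61 to 4.10 in the IgG libraries, and that of the myeloid markers was 9.36 to 9.97 with anti-LIF and 8.31 to 8.74 with IgG, so neither score overlapped between the arms. With either score as a covariate in edgeR, 0 subunit genes and 0 of all tested genes passed the threshold. At an unadjusted p under 0.05 there were 1 subunit gene and 691 genes in all with the acinar score, and 1 and 1116 with the myeloid score. The arm and these markers therefore cannot be told apart with 4 libraries on each side.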

How the data were processed

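RNA of sorted EpCAM-positive cells from 8 tumours was sequenced, 4 in each arm. Per the submitters' processing notes, FastQC 0.11.2, STAR 2.4.0k, HOMER and edgeR 3.6.8 were named, with the build mm10. Per the file headers, HOMER counted reads in exons and kept 1 transcript for each gene (no source used here states the strand setting or the treatment of reads that match several genes). The authors deposited raw read counts, which are whole numbers, and FPKM, which are counts scaled by transcript length and library total. Of 168000 FPKM values in both tables, 167977 (99.986%) matched the counts, transcript lengths and header totals (18954525 to 24681702) within 0.002. There were 0 unused columns of single samples. 

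Counts were tested in R 4.3.3 with edgeR 4.0.16 (filterByExpr, TMM, quasi-likelihood test, Benjamini-Hochberg, threshold 0.05), after a check on simulated counts. Alternatives used limma 3.58.1, DESeq2 1.42.0 and sva 3.50.0, other scalings and filters, the FPKM, a length correction, marker scores as covariates and each library left out. No pairing was possible, as no mouse number occurs in both arms. The reads carry no molecular identifiers, so the limit of 3 for a count of 0 covers counting error only. Shared words and promoter windows were taken from GENCODE M21 and RefSeq (GRCm38), which is the assembly of mm10.

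Members and lists were chosen with earlier results of these data known. Named with values were all members past the threshold, and the highest FPKM and the largest and smallest log2 fold change of each complex. So were all of complex II, tissue-specific forms, and up to 4 genes past the threshold in each list. Any other gene was chosen after its values were seen. FPKM levels and uncalled genes beside these serve as description. A further allele of the mice and 1 gene of complex I, which is included in all counts, are not reported here.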

Additional observations from a re-analysis of the deposited data

Results flagged for a closer look

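For 33 named genes and for the summed share of counts of all subunits and of each complex, in both arms, 78 groups of 4 libraries were checked for 1 library far from the other three, and 3 were found, where chance alone gives about 1 in 20. Atp5g3, a gene for the c subunit of ATP synthase, stood at 161 CPM in the IgG library KPCL-PCC_345_G, against 136 to 139.5 CPM in the other IgG libraries. Cox7a2, the ubiquitous form of subunit VIIa, stood at 54.8 CPM in the IgG library KPCL-PCC_203_G, below the 63.2 to 63.8 CPM of the others. Cox8b, the heart and muscle form of subunit VIII, stood at 0.200 CPM (3 reads) in the anti-LIF library KPCL-PCC_310_GA and at 0 in the other anti-LIF libraries.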

How the results depend on the processing

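The direction of the medians depended on scaling. With library size alone 1 member rose and 8 fell, and the median log2 fold change was −0.0586 over all members and −0.0799, 0.00771, −0.0989, −0.0527 and 0.0155 for complexes I to V. With the header totals 1 rose and 6 fell, with medians of −0.0249 over all and −0.0490, 0.0394, −0.0686, −0.0232 and 0.0469 for complexes I to V. On log2(FPKM + 1) 4 rose and 7 fell, with −0.0247 over all and −0.0545, 0.0397, −0.0688, −0.0271 and 0.0471. On log2(FPKM + 0.1) 4 rose and 7 fell, with −0.0253 over all and −0.0569, 0.0402, −0.0696, −0.0275 and 0.0561. Relative to the median of all genes, the members' median lay between 0.06 and 0.15 in these and the other alternatives, except that it was 0.03 with the acinar score and −0.005 with the myeloid score as a covariate.

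With the acinar score 0 rose and 0 fell, and the medians were 0.00595 over all, −0.0145, 0.0665 and −0.0233 for complexes I to III, 0.0123 for complex IV and 0.00983 for complex V. With the myeloid score 0 rose and 0 fell, and they were −0.00332 over all, −0.0624, −0.137 and 0.0153 for complexes I to III, 0.129 for complex IV and 0.0779 for complex V. Ndufb2 stood at −0.11 with the myeloid score, the one past-threshold gene whose sign turned. The number that fell was 3 with upper-quartile scaling, DESeq2 and voom sample weights, and 2 with the stricter filter, the length correction and 1 surrogate variable. With DESeq2 13 rose, and 21.3% of members and 38.8% of all genes passed. With 1 library left out, 4 to 10 rose and 0 to 3 fell, while 20 to 29.2% of all tested genes passed in either direction. The 3 that fell, without KPCL-PCC_203_G, include Cox4i2, which was not tested with all 8 libraries. Of the counts and medians under the alternatives, 62 moved by more than 1.5 times (counts) or by more than the SD between libraries (medians), and the 134 others moved by less than that or not at all. Where a value moved, the cause was not tested. Cox7a1, Cox6b2, Atp5g1 and Atp5g2 had few reads, so small changes in them were not detectable at this depth.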
